A study of Mus musculus with 8 samples.

Results

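The genes described here are interferon-stimulated genes other than chemokines, measured in mouse thymus after spaceflight. They were chosen by name, as 43 listed symbols, and 37 of them had a probe set annotated to a single gene among the 19938 genes of the array. Where a gene had several such probe sets, the one of highest mean over the 8 arrays was used. Of the 6 others, Isg15, Gbp2, Gbp6, Igtp and Irgm2 had only probe sets shared with other genes, and Ifi44 was not analysed here. No member was dropped for a low value. The members were sorted by textbook knowledge into 23 measured genes induced mainly by type I interferon, 7 induced mainly by interferon gamma, and 7 induced by both.

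The thymus RNA came from C57BL/6NTac mice, an inbred laboratory strain, 8 weeks old. A group of 4 had spent 13 days on the space shuttle, and the 4 ground controls, matched for age and sex, lived in the same type of animal enclosure module. All mice thus shared strain, age and housing type, and no transgene or drug is named. Thymus lobes were taken when the mission ended, and each sample gave a single Affymetrix array, so the p-values measure the spread between these samples. Values are log2 expression values, on which a step of 1 is a doubling, and differences are spaceflight minus ground control.

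Interferons are cytokines that put cells into an antiviral state. Type I interferons act through the receptor of Ifnar1 and Ifnar2 and the factor ISGF3, which includes Stat2 and Irf9 and binds the interferon-stimulated response element, ISRE. Interferon gamma acts through Ifngr1 and Ifngr2 and leads to binding at the gamma-activated site, GAS. In the healthy thymus a low level of interferon signalling is present without infection, and macrophages, dendritic cells, epithelium and maturing thymocytes all express such genes.

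Promoter stretches of 5 members are shown first, as examples of the letters by which both classes can respond to interferon. They are from RefSeq sequence of assembly GRCm38.p6, 5′ to 3′ on the strand of the gene, upstream of the annotated start, with capitals for matches on either strand. The ISRE letters searched were GAAA, any 2 bases and GAAA (on the opposite strand TTTC, any 2 bases and TTTC), and the GAS letters were TTCNNNGAA. Overlapping matches run together.
Ifit1, chr19:34640760-34640838, + strand, ISRE: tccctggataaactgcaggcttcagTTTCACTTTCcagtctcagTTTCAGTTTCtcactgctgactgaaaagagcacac
Oas3, chr5:120777700-120777759, - strand, ISRE: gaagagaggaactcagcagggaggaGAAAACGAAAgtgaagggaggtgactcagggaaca
Irgm1, chr11:48871421-48871475, - strand, ISRE: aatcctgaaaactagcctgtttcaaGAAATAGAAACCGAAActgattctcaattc
Gbp5, chr3:142496684-142496915, + strand, ISRE and GAS: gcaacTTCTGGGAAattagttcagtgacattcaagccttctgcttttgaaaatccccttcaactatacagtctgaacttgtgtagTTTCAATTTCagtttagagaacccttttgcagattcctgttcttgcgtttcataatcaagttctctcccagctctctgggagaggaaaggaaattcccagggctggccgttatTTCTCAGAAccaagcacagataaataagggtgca
Irf1, chr11:53769899-53769957, + strand, GAS: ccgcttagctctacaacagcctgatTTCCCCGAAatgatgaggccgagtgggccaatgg

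RefSeq promoters, from 250 bases before to 50 bases after the start, were matched for 30 of the 43 listed members. An ISRE match was found in 18 of the 30 (60%), against 3.99% of 27025 genes. The type I-biased members held it in 11 of 18 and the gamma-biased members in 7 of 8. A GAS match was found in 11 of 30 members (36.7%), against 9.55% of all genes, with 4 of 18 among type I-biased and 5 of 8 among gamma-biased members. These matches are descriptions of the letters in the window and not of binding. The measured members with an ISRE match had a median difference of -0.18 after spaceflight (14 genes), those without one -0.10 (11 genes). Within type I-biased members both medians were -0.18 (10 and 6 genes), and within gamma-biased members they were -0.21 (4 genes) and -0.36 (1 gene). For GAS the order over all members was the other way, with -0.10 for 9 members with a match and -0.22 for 16 without. Type I-biased members kept that order, with -0.05 (4 genes) and -0.22 (12 genes), as did shared members, with -0.10 and -0.43 (2 genes each). Gamma-biased members did not, with -0.31 (3 genes) for a match and -0.18 (2 genes) without.

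The arrays of spaceflight mice 1 and 3 differed from the other 6 in measures taken over all genes. Their values were less spread, with an interquartile range of 2.22 each where the other arrays had 2.55 to 2.84, and they correlated with the others at 0.956 to 0.986, where the others correlated among themselves at 0.984 to 0.993. The 2 ranges of correlation overlapped. Differences are also given without both arrays, a choice made after seeing the data. With all arrays the median difference of the 9463 genes with a mean from 6 to 9, the range that held 33 of the 37 members, was -0.11, and without them it was -0.01. Of the thymus-defining markers, Rag1 ran from 12.29 to 12.64 over the 8 arrays and Cd8a from 11.55 to 11.99, against array medians of 6.01 to 6.10. In whole tissue, fewer cells of a type and less RNA per cell cannot be told apart.

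None of the 37 members passed the test between groups. At a limma adjusted p under 0.05 the count was 0 of 37 members, against 0.0802% of all genes, and at an unadjusted p under 0.05 it was 6 of 37 lower (16.2%) and 0 higher, against 7.38% of all genes lower and 3.43% higher. Among genes with a mean from 6 to 9 the share lower at that unadjusted p was 12% for all genes and 15.2% for members. The 6 were Ube2l6, Rtp4, Zbp1, Gbp4, Oasl2 and Oas2. The count was 12 (32.4%) without spaceflight replicate 2, and also 12 without spaceflight replicate 4, where the share of all genes rose too, to 10.9% and 11.1%. It was 4 (10.8%) without spaceflight replicate 3 (5.28% of all genes) and 4 without ground-control replicate 3 (4.47%). The smallest limma adjusted p of a member was 0.196, for Ube2l6.

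The means nevertheless leaned one way. The mean was lower after spaceflight in 35 of 37 members, with a median difference of -0.14 (range -0.81 to 0.06), where 53.5% of all genes were lower with a median of -0.02. Of all genes with a mean from 6 to 9, 74.1% were lower. This lean depended on the scaling and on the arrays. With arrays centred on their 75th percentiles 18 members were lower, as were 28% of all genes, and the median of all genes moved to 0.12. Such centring shifts the difference of every gene alike, so the 35 of 37 members below that median could not change. With repeated quantile normalization 23 of 37 members were lower, as were 48.3% of all genes, and 24 of 37 lay below the median of all genes. Without spaceflight replicates 1 and 3, 15 of 37 members were lower, against 53.4% of all genes and 51.5% of those with a mean from 6 to 9, and the median was 0.02. In that setting 15 of 37 lay below the median of all genes.

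**Figure D1:**
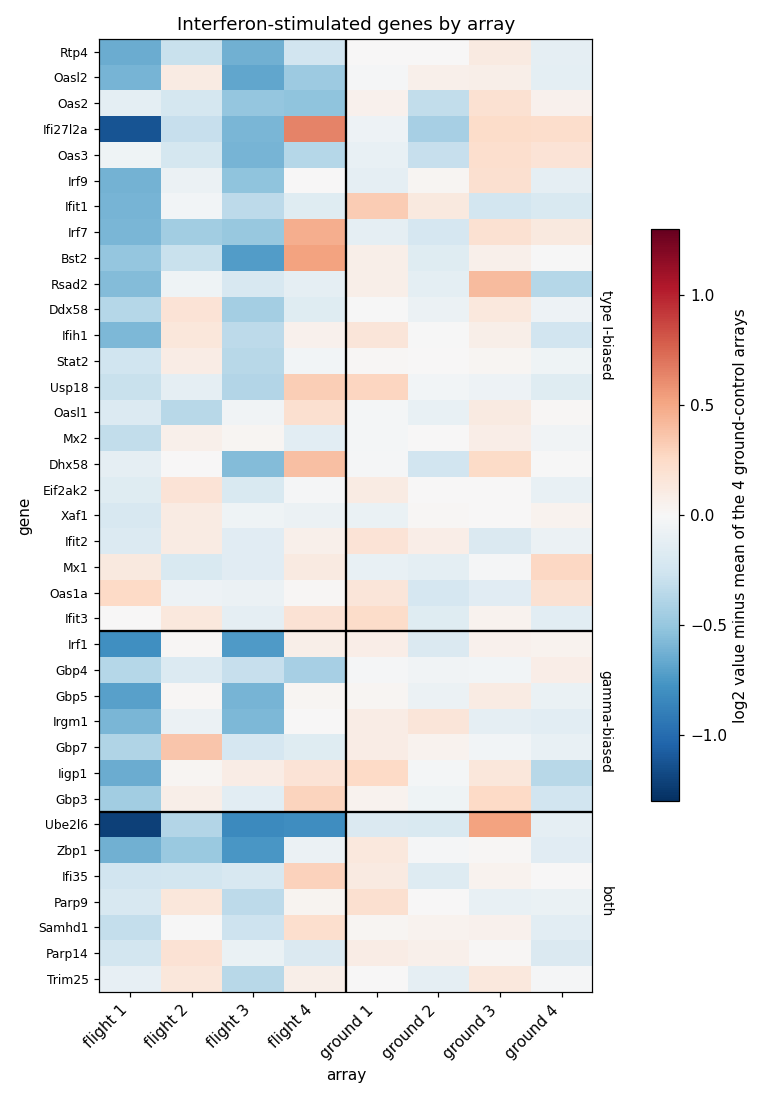
Log2 value of each of the 37 members (rows) in each of the 8 arrays (columns) minus the mean of the 4 ground-control arrays, blue for lower and red for higher. The flight 1 and flight 3 columns are mostly blue, with medians of -0.36 and -0.34, and the flight 2 and flight 4 columns are mixed, with medians of -0.01 and 0.03.

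The members were low in some flown mice and not in others. Against the ground-control mean, their median was -0.36 in spaceflight mouse 1, -0.01 in mouse 2, -0.34 in mouse 3 and 0.03 in mouse 4, and the ground-control mice lay between -0.08 and 0.07. In mouse 1, 29 of 37 members read below all 4 ground-control arrays (37.6% of all genes did), and in mouse 3 the number was 27 (39.8%). In mouse 2 it was 9 members (22.6% of all genes) and in mouse 4 also 9 (24.7%). These shares were not taken for genes with a mean from 6 to 9, the range that held 33 of the 37 members. Those genes had a median difference of -0.11 with all arrays and -0.01 without mice 1 and 3, so the shares over all genes are not matched for level. The standard deviation was larger among flown mice than among controls for 28 of 37 members, or 75.7%, close to the 74.6% of all genes.

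Among the genes that carry the type I signal, the 3 measured factors were lower on average, with no test passed. Irf9, the DNA-binding subunit of ISGF3, read 6.71, 7.24, 6.80 and 7.33 in spaceflight mice 1 to 4 and 7.20, 7.35, 7.53 and 7.20 in ground-control mice 1 to 4. Mice 1 and 3 lay below every control and mice 2 and 4 inside the control range. Its difference was -0.30 ± 0.15 (± SE, limma adjusted p = 0.483) and -0.04 without those 2 arrays. Irf7, the factor that amplifies production of interferon alpha, read 7.43, 7.57, 7.53 and 8.49 after spaceflight and 7.90, 7.80, 8.22 and 8.15 on the ground. Mouse 4 was the highest of all 8, and the other flown mice were below every control. The difference was -0.26 ± 0.21 (limma adjusted p = 0.611), and 0.01 without mice 1 and 3. Stat2, a subunit of ISGF3, differed by -0.14 ± 0.12, and by 0.03 without those arrays.

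The cytosolic sensors of viral RNA also had lower means, with no test passed. Ddx58 (RIG-I) differed by -0.19 ± 0.14, Ifih1 (MDA5) by -0.17 ± 0.17, Dhx58 (LGP2, a regulator of both) by -0.07 ± 0.18, and Eif2ak2 (PKR, which halts translation on double-stranded RNA) by -0.06 ± 0.12. Each of the 4 had a difference above 0 without spaceflight replicates 1 and 3, from 0.02 to 0.21. Usp18, the protease that removes Isg15 from proteins and damps receptor signalling, differed by -0.12 ± 0.16 (0.10 without these arrays).

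Of the 15 measured type I-biased effectors, 13 had lower means and 3 were at an unadjusted p under 0.05. Rtp4, a receptor transporter protein gene strongly induced by type I interferon, read 7.66, 8.01, 7.68 and 8.05 after spaceflight and 8.30, 8.31, 8.42 and 8.18 on the ground. Each flown mouse was below each control, with mice 1 and 3 the lowest. The means were 7.85 ± 0.21 and 8.30 ± 0.10 (SD, n = 4 each), a difference of -0.45 ± 0.12 (limma adjusted p = 0.268) that was -0.28 without mice 1 and 3.

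The oligoadenylate synthetase family, which makes the activator of the RNA-degrading enzyme RNase L, did not move as a block. Oas2 read 5.84, 5.74, 5.47 and 5.45 after spaceflight against 6.03, 5.65, 6.17 and 6.03. The groups overlapped only through ground-control mouse 2. Its difference was -0.34 ± 0.14 (limma adjusted p = 0.422) and -0.37 without spaceflight mice 1 and 3. Oas3 read 6.17, 6.00, 5.63 and 5.86 against 6.13, 5.93, 6.45 and 6.41. Here mice 1 and 2 fell inside the control range, and the difference was -0.32 ± 0.15 (limma adjusted p = 0.469), with -0.30 when mice 1 and 3 were left out. Oas1a read 6.45, 6.12, 6.11 and 6.21 against 6.35, 5.97, 6.04 and 6.39, a difference of 0.04 ± 0.13 whose sign changed with array weights (-0.02) and without spaceflight replicate 1 (-0.04).

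Oasl2, a relative of that family, read 7.63, 8.34, 7.55 and 7.76 after spaceflight against 8.21, 8.30, 8.31 and 8.10. Mouse 2 was the highest of all arrays and the other flown mice were below every control. The difference was -0.42 ± 0.16 (limma adjusted p = 0.409), and -0.19 without mice 1 and 3. Oasl1, which restrains translation of Irf7, differed by -0.10 ± 0.13, and by -0.08 without them.

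The Ifit genes, which encode binders of foreign RNA and lie next to one another, gave different values. Ifit1 differed by -0.29 ± 0.16, Ifit2 by -0.04 ± 0.12 and Ifit3 by 0.06 ± 0.12. Without spaceflight mice 1 and 3 these were -0.11, 0.09 and 0.17. Ifit3 and Oas1a were the 2 members with a higher mean. The Ifit3 arrays overlapped, at 6.34, 6.48, 6.22 and 6.53 after spaceflight and 6.58, 6.18, 6.39 and 6.20 on the ground. Members of the Ifit, Oas and Gbp families have close paralogs, so that their probe sets can share signal and each value is uncertain to that extent.

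Of the remaining effectors, Ifi27l2a and Bst2 had wide spreads among flown mice. Ifi27l2a, an interferon-inducible protein of mitochondria, ran from 5.79 to 7.56 among flown mice and from 6.48 to 7.15 among controls, with a difference of -0.34 ± 0.30 that was 0.18 without mice 1 and 3. Bst2 (tetherin), which holds budding virus at the cell surface and is also high on plasmacytoid dendritic cells, ran from 7.32 to 8.57 and from 7.89 to 8.13, with a difference of -0.25 ± 0.22 that was 0.12 without them. For both, spaceflight mouse 4 was the highest of the 8 arrays and mouse 1 or 3 the lowest. Rsad2 (viperin) differed by -0.24 ± 0.17, Xaf1, a promoter of cell death, by -0.06 ± 0.11, Mx2 by -0.09 ± 0.12 and Mx1 by -0.03 ± 0.13. Without mice 1 and 3 Rsad2 was at -0.09, Xaf1 at 0.02, and Mx2 and Mx1 at -0.04. The group means of Mx2 and Mx1 ran from 4.59 to 4.91, below the array medians of 6.01 to 6.10. The Mx1 protein is lost by a deletion in C57BL/6 and most other laboratory strains.

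**Figure D2:**
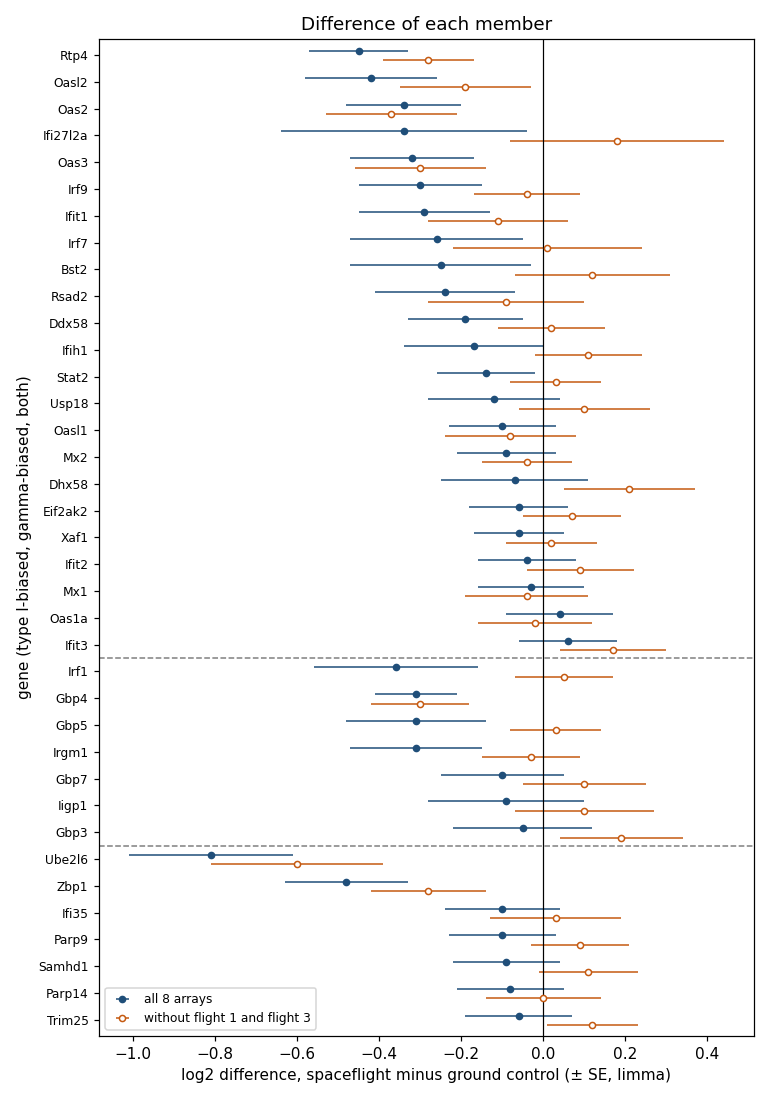
Log2 difference (spaceflight minus ground control, horizontal axis, ± SE from limma) of each of the 37 members, filled for all 8 arrays and open without flight 1 and flight 3, with dashed lines between type I-biased, gamma-biased and shared members. Filled points lie below 0 in 35 of 37 members, and open points in 15.

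The gamma-biased genes were lower on average in all 7 measured members, and 1 of 7 was at an unadjusted p under 0.05. That gene was Gbp4, of the guanylate-binding proteins, large GTPases that attack the vacuoles of intracellular pathogens. It read 8.79, 8.98, 8.86 and 8.73 after spaceflight and 9.14, 9.11, 9.12 and 9.25 on the ground. The groups did not overlap, and mouse 4 was the lowest. The means were 8.84 ± 0.10 and 9.16 ± 0.06 (SD, n = 4 each), a difference of -0.31 ± 0.10 (limma adjusted p = 0.347), which was -0.30 without mice 1 and 3.

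The other gamma-biased genes followed spaceflight mouse 1. Irf1, the transcription factor that interferon gamma induces first, read 7.66, 8.48, 7.72 and 8.54 after spaceflight and 8.55, 8.27, 8.52 and 8.51 on the ground. Mice 1 and 3 were over 0.5 below every control, and mice 2 and 4 were inside the control range. Its difference of -0.36 ± 0.20 (limma adjusted p = 0.5) became 0.05 without mice 1 and 3. A second, dimmer probe set of Irf1 differed by 0.03. Irgm1, an immunity-related GTPase that protects the cell's own membranes from its relatives, read 7.43, 7.94, 7.44 and 8.03 against 8.12, 8.18, 7.90 and 7.88. Mice 1 and 3 were again below every control and the others were not, and the difference was -0.31 ± 0.16 (limma adjusted p = 0.481) with all arrays and -0.03 without these mice.

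Gbp5, which promotes inflammasome assembly, read 5.20, 5.93, 5.31 and 5.94 against 5.94, 5.83, 6.02 and 5.82, the same arrangement of mice. Its difference was -0.31 ± 0.17, and 0.03 without mice 1 and 3. Gbp7 differed by -0.10 ± 0.15, Gbp3 by -0.05 ± 0.17 and the GTPase Iigp1 by -0.09 ± 0.19. Without those mice Gbp7 and Iigp1 were at 0.10 and Gbp3 at 0.19. Spaceflight mouse 1 was the lowest of the 8 arrays in 6 of the 7 gamma-biased genes and in 19 of all 37 members, against 22.9% of all genes. Mouse 3 was the lowest in 11 of 37 members (21.5% of all genes) and in 0 of the 7 gamma-biased genes. These shares too are over all genes and are not matched for level.

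**Figure D3:**
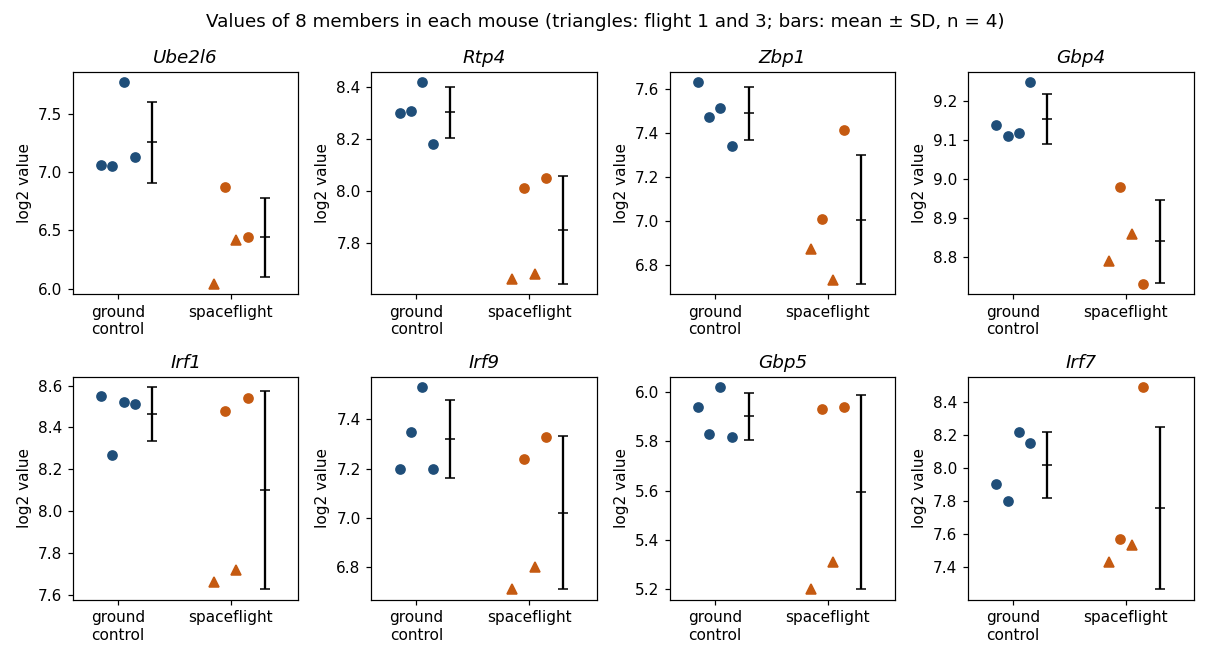
Log2 values of 8 members in each mouse, ground control in blue and spaceflight in orange, with triangles for flight mice 1 and 3 and bars for mean ± SD (n = 4). In Ube2l6, Rtp4 and Gbp4 each flown mouse lies below each control, and in Irf1, Irf9 and Gbp5 the triangles alone do.

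Members induced by both interferons held the largest difference of the 37. Ube2l6, the conjugating enzyme that passes Isg15 to its targets, read 6.04, 6.87, 6.42 and 6.44 after spaceflight and 7.06, 7.05, 7.77 and 7.13 on the ground. Every flown mouse was below every control, though ground-control mouse 3 stood high above the rest. The means were 6.44 ± 0.34 and 7.25 ± 0.35 (SD, n = 4 each), so that the ground-control level was 1.75-fold that after flight. The difference was -0.81 ± 0.20 (limma adjusted p = 0.196; unadjusted p = 0.00146) and -0.60 ± 0.21 without spaceflight mice 1 and 3.

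Zbp1, a sensor of left-handed nucleic acid that can trigger necroptosis, read 6.87, 7.01, 6.73 and 7.41 after spaceflight and 7.63, 7.47, 7.51 and 7.34 on the ground. Mouse 4 alone reached the control range. The difference was -0.48 ± 0.15 (limma adjusted p = 0.318) and -0.28 without mice 1 and 3. The other 5 lay from -0.10 to -0.06, and without those mice from 0.00 to 0.12. They were Parp9 and Parp14, ADP-ribosyltransferase family members, Ifi35, a partner of Nmi, Samhd1, which depletes deoxynucleotides, and Trim25, a ubiquitin ligase that activates RIG-I and a ligase for Isg15. Of the measured members sorted under the Isg15 system, then, Ube2l6 differed by -0.81 while Trim25 differed by -0.06 and Usp18 by -0.12. Herc6, which is not a member and was not sorted there, differed by -0.28 ± 0.11 (limma adjusted p = 0.412). Each flown mouse was below each control for Herc6, and its difference was -0.24 without mice 1 and 3.

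In all, 3 of 37 members (8.11%) had every flown mouse below every control, namely Ube2l6, Rtp4 and Gbp4, against 4.28% of all genes and 6.45% of genes with a mean from 6 to 9. There was 1 in each induction class. None had every flown mouse above every control, as 1.73% of all genes did. A mean lower by at least 0.3 was found with all arrays in 12 of 37 members (32.4%), against 9.21% of all genes and 14.9% of genes with a mean from 6 to 9. When mice 1 and 3 were left out, Irf9, Irf1, Gbp5, Irgm1 and Ifi27l2a of these 12 lay from -0.04 to 0.18. Oasl2 lay at -0.19 and the rest of the 12 from -0.60 to -0.28. Without spaceflight mice 1 and 3, 4 of 37 members were lower at an unadjusted p under 0.05 (3.97% of all genes, 4.52% of those with a mean from 6 to 9), and these 4 were Ube2l6, Rtp4, Gbp4 and Oas2.

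The type I-biased and gamma-biased members were then set side by side. Their median differences were -0.17 (23 genes) and -0.31 (7 genes), with -0.10 for the 7 shared members. By mouse, the type I-biased median relative to ground control was -0.29, -0.06, -0.35 and 0.00 in spaceflight mice 1 to 4, and the gamma-biased median was -0.59, 0.02, -0.30 and 0.04. Only in mouse 1 were the classes far apart, by 0.30, and in the other 7 arrays they differed by -0.09 to 0.05. Averaged over mice, the type I-biased median minus the gamma-biased median was 0.03 ± 0.18 after spaceflight and -0.01 ± 0.06 on the ground (SD, n = 4 each). The gap between the 2 medians of differences, 0.14 with all arrays, was 0.03 without spaceflight replicate 4, -0.006 when the 2 probe sets of Irf1 were averaged, and -0.034 without spaceflight replicates 1 and 3. The 2 classes were thus not separated beyond the spread between mice.

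Markers of cells that express these genes moved with the same arrays. The 10 macrophage markers, all measured, had mean log2 levels of 7.72, 8.60, 8.08 and 8.88 in spaceflight mice 1 to 4 and 8.42 to 8.80 on the ground. Mouse 1 and mouse 3 were below every control, as with Irf1 and Gbp5, and mouse 4 was above, as with Irf7, Bst2 and Ifi27l2a. Of these markers 7 of 10 had lower means with all arrays (median difference -0.30), and the median was 0.17 without mice 1 and 3. The macrophage marker Adgre1 (F4/80) read 6.08, 7.18, 6.30 and 7.28 against 7.13 to 7.34, and C1qa, of the first complement component, read 7.66, 8.85, 8.11 and 9.44 against 8.74 to 9.10. Timd4, Mertk and Vcam1 had higher means after spaceflight, with differences of 0.19, 0.06 and 0.06. Timd4 read 7.10 in mouse 1 and 7.03 in mouse 3, inside its control range of 6.78 to 7.37. The part of the macrophage markers in the interferon results was not tested.

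Other cell type lists shifted too, with no marker passing. The 6 mature single-positive thymocyte markers measured, of 7, ran from 7.77 to 8.34 after spaceflight and from 8.02 to 8.29 on the ground, again lowest in mice 1 and 3. The 10 conventional dendritic cell markers ran from 6.13 to 6.35 and from 6.36 to 6.53, below the controls in every flown mouse. Cortical epithelium (8 markers) ran from 8.11 to 8.48 against 8.57 to 8.68, without overlap, and medullary epithelium (7 of 8) from 6.73 to 7.24 against 7.23 to 7.36. Double-positive thymocytes (6 of 7) ran from 10.84 to 11.06 against 11.07 to 11.17, also without overlap. Plasmacytoid dendritic cell markers (5 of 6) ran from 7.13 to 7.35 against 7.33 to 7.59. In the means of both dendritic cell lists, both epithelial lists and the double-positive list, mice 1 and 3 were likewise the lowest. Single markers did not all follow. Siglech, of the plasmacytoid list, read 5.67 in mouse 1, above its controls of 5.41 to 5.49, and differed by 0.11. In the conventional list Batf3 and Zbtb46 were highest among flown mice in mice 1 and 3, and differed by -0.03 and 0.01. Means were lower in 9 of 10 conventional and 4 of 5 plasmacytoid markers. Fat cell markers (6) ran from 7.43 to 8.46 against 8.49 to 8.99, with a median difference of -0.68. The B cell, innate lymphoid, neutrophil, endothelial and fibroblast lists overlapped between groups, and of 4 red cell markers 1 was measured and it overlapped too. Ube2l6, Rtp4 and Gbp4, which were low in all flown mice, thus shared that arrangement with the means of the conventional dendritic cell, cortical, double-positive and fat cell lists. The groups came close in the conventional (6.35 and 6.36), double-positive (11.06 and 11.07) and fat cell (8.46 and 8.49) lists. Without mice 1 and 3 the 4 list medians were -0.11, -0.10, -0.07 and -0.31. The cortical markers Ctsl, Ly75, Prss16 and Cxcl12 overlapped between groups and lay from 0.07 to 0.17 without those mice. The part of these lists in the values of the 3 genes was not tested.

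**Figure D4:**
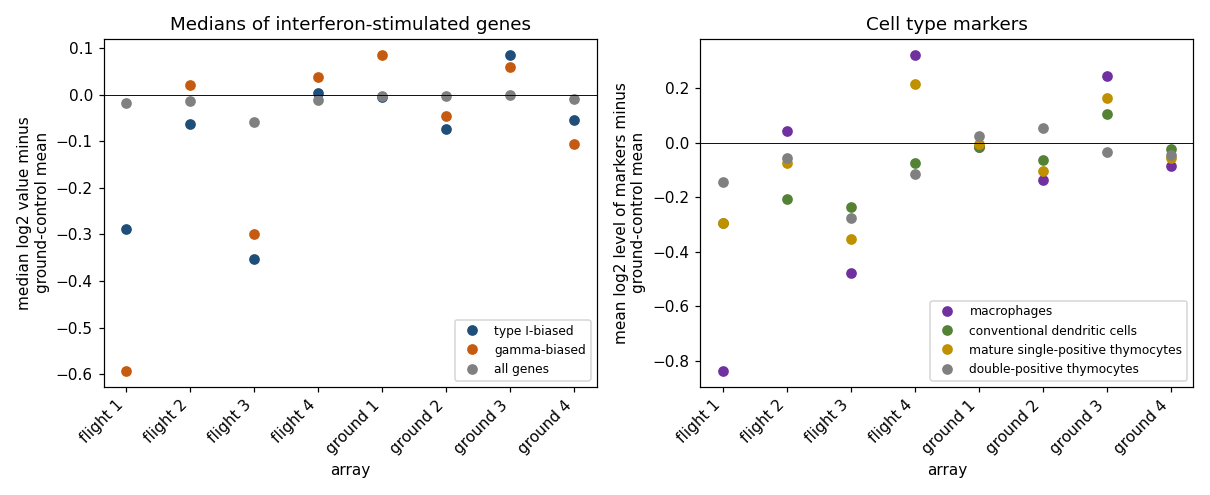
Left, the median over type I-biased members, gamma-biased members and all genes in each array, as log2 value minus the ground-control mean. Right, the mean log2 level of the macrophage, conventional dendritic cell, single-positive and double-positive marker lists minus its ground-control mean. Both classes of interferon-stimulated genes and every marker list shown are lowest in flight 1 and flight 3.

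Upstream of the members, no gene of the pathway passed except among the chemokines. The 16 interferon genes measured had a median difference of 0.12, which was -0.04 without spaceflight mice 1 and 3, and 0 passed. Ifnb1 differed by -0.11 ± 0.11 and Ifng by 0.02 ± 0.10, with each array between 4.33 and 4.58 for Ifng, below the array medians of 6.01 to 6.10. The ligands of smallest p were Ifna2 (0.38 ± 0.15), Ifna5 (0.32 ± 0.19) and Ifna16 (0.25 ± 0.17). These genes are close copies of each other, and the values are uncertain. Without spaceflight mice 1 and 3 Ifna2 differed by 0.23, Ifna5 by -0.05, Ifna16 by 0.08, Ifnb1 by -0.20 and Ifng by -0.03.

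The receptors gave a contrast in the gamma chain pair. Ifngr2, the signalling chain for interferon gamma, read 8.67, 8.84, 8.54 and 8.96 after spaceflight and 9.16, 9.0, 9.24 and 9.10 on the ground, each flown mouse below each control. Its difference was -0.37 ± 0.12 (limma adjusted p = 0.331) and -0.23 without mice 1 and 3. Ifngr1, the ligand-binding chain, read 10.54, 10.48, 10.18 and 10.45 against 10.21, 10.27, 10.23 and 10.33, and differed by 0.16 ± 0.11. The type I chain Ifnar1 read 8.30, 8.64, 8.30 and 8.66 against 8.61, 8.51, 8.54 and 8.54 (difference -0.08 ± 0.12). Ifnar2 read 8.90, 9.28, 8.53 and 9.13 against 8.91, 8.93, 9.18 and 9.04 (-0.06 ± 0.16). Without mice 1 and 3 Ifnar1 was at 0.10, Ifnar2 at 0.19 and Ifngr1 at 0.21. Il10rb, shared with the interferon lambda receptor, differed by -0.30 ± 0.19, and by 0.04 without those mice.

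Of 9 kinases and transcription factors measured, 0 passed. Irf8, a factor of macrophages and dendritic cells, differed by -0.35 ± 0.18, Irf3, which switches on interferon beta, by -0.21 ± 0.13, and Stat4, used by interleukin 12, by 0.23 ± 0.18. Without mice 1 and 3 Irf8 was at -0.05, Irf3 at -0.02 and Stat4 at 0.58, and without mouse 3 alone Irf8 was at -0.164. Of 8 negative regulators 0 passed, with Adar, the editor that hides self RNA, at -0.25 ± 0.11, the phosphatase Ptpn2 at -0.25 ± 0.13 and the phosphatase Ptpn6 at -0.22 ± 0.13. Without mice 1 and 3 they were at -0.15, -0.07 and -0.03. Of 10 sensors and adaptors 0 passed, with the DNA sensor Cgas at -0.25 ± 0.12, the adaptor Mavs at -0.25 ± 0.14 and the kinase Tbk1 at 0.11 ± 0.13, and without those mice at -0.18, -0.09 and 0.25.

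Of a further 48 interferon-stimulated genes outside the members, 0 passed. The mean was lower in 33 of 48 (68.8%), against 53.5% of all genes and 74.1% of those with a mean from 6 to 9. At an unadjusted p under 0.05, 5 were lower (10.4%, against 7.38% of all genes and 12% of those with a mean from 6 to 9) and 0 higher, and the median difference was -0.13, and 0.00 without mice 1 and 3. Cd274 (PD-L1, the inhibitory ligand of PD-1) differed by -0.54 ± 0.12 (limma adjusted p = 0.177), and by -0.48 without mice 1 and 3. Ifitm3, which blocks viral entry, differed by -0.69 ± 0.20 (adjusted p = 0.283), and Ciita, the master regulator of MHC class II, by -0.34 ± 0.13 (adjusted p = 0.393), both by limma. Without mice 1 and 3 the last 2 were at -0.34 and -0.18. The largest positive difference of the list was that of Ifi202b, an interferon-inducible DNA-binding protein, at 0.28 ± 0.18 (limma adjusted p = 0.539) and 0.51 without those mice.

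Among 6 interferon-induced chemokines the single call was Cxcl10, which attracts Cxcr3-bearing T cells. It read 7.01, 7.58, 7.34 and 7.82 after spaceflight and 9.09, 8.87, 8.97 and 8.81 on the ground, and fell by 1.499 ± 0.16 (limma adjusted p = 0.00506), or by 1.24 without mice 1 and 3. Cxcl9, induced by interferon gamma, differed by -0.38 ± 0.13 (limma adjusted p = 0.351), Ccl5 by -0.40 ± 0.17 and Cxcl11 by -0.05 ± 0.11. Without mice 1 and 3 these were at -0.36, -0.12 and -0.07. The range of the 37 members ended at -0.81, so no member reached the Cxcl10 difference.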

How the data were processed

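The deposited values are log2 expression values of 8 arrays, made with RMA per the submitters' processing notes, which also name limma. Their versions and the genome build are not given in the sources used here. Per the labels' protocols, 6 µg of Trizol-extracted RNA was biotin-labelled. A lowest run of 6614 unannotated identifiers was left out as likely controls, which the table does not mark. Of 28943 probe sets 21789 had a single gene, and symbols were updated through RefSeq GRCm38.p6 (21698 matched), giving 19938 genes. Array values give no count depth, and precision is limited by having 4 arrays in each group.

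Groups were compared by two-sided moderated tests of limma 3.58.1 (lmFit, then eBayes; R 4.3.3) on all 8 arrays, with Benjamini-Hochberg adjustment over the 19938 genes. Members, lists and classes were chosen with earlier results of these data known, so lists are described by counts and medians without a test. Array values are given for the 10 members of smallest p among lower ones, up to 5 among higher ones, any gene called, Irf7 and the 4 receptor chains, and up to 3 genes of smallest p of each pathway list are named. Every member may be named. Gbp5, Bst2, Ifi27l2a, Ifi202b, Herc6, Rag1, Cd8a, Ifnb1, Ifng, Cxcl11, Adgre1, C1qa, Timd4, Mertk and Vcam1 were given values after these were seen. So were Siglech, Batf3, Zbtb46, Ctsl, Ly75, Prss16 and Cxcl12. The limits of 6 and 9 on the mean were also set after seeing the data. Same-numbered mice were checked for pairing and are not treated as pairs. Alternatives were other centring, repeated quantile normalization, a filter on means under 5, averaged probe sets, array weights, an intensity trend, a replicate block and leaving out each array. A fit over all probe sets and leaving out spaceflight replicates 1 and 3 together were added after seeing the data.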

Additional observations from a re-analysis of the deposited data

Results flagged for a closer look

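In 5 of 120 groups of 4 arrays, 1 value stood far from the other 3 by Dixon's ratio, and chance alone gives about 1 in 20. Irf7 was 8.49 in spaceflight replicate 4, against 7.43 to 7.57 in the other flown mice. Ifi35 was 7.12 in the same array, against 6.57 to 6.61. Irf1 was 8.27 in ground-control replicate 2, against 8.51 to 8.55. Ube2l6 was 7.77 in ground-control replicate 3, against 7.05 to 7.13. Samhd1 was 8.44 in ground-control replicate 4, against 8.61 to 8.64.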

How the results depend on the processing

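Under every alternative run, 0 members and 1 pathway gene (Cxcl10) were called. Centring on 75th percentiles gave 3 members lower at an unadjusted p under 0.05, 18 with a lower mean and a type I-biased median of -0.032. Repeated quantile normalization gave 23 members with a lower mean, and averaging probe sets gave a type I-biased minus gamma-biased gap of -0.006. Without spaceflight replicates 1 and 3, 15 members had a lower mean, the medians were 0.012 (type I-biased) and 0.047 (gamma-biased), and the gap was -0.034. Leaving out single arrays gave 4 to 12 members lower at an unadjusted p under 0.05 and 32 to 36 with a lower mean. Over the same cases the member median ran from -0.234 to -0.078, the type I-biased median from -0.25 to -0.081, the gamma-biased median from -0.361 to -0.18 and the gap from 0.029 to 0.146. Apart from the alternatives' own construction, the cause was not tested.

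Some genes changed sign. Ifnar1 was at 0.063 and Ifnar2 at 0.081 with 75th-percentile centring, which moved the median of all genes to 0.12, and both at 0.054 with repeated quantile normalization. Array weights gave 0.011 for Ifnar2 and -0.021 for Oas1a. Leaving out single arrays moved Ifnar2 from -0.165 to 0.085 (the latter without spaceflight replicate 3) and Oas1a from -0.039 to 0.103, below 0 without spaceflight replicate 1, ground-control replicate 2 or ground-control replicate 3. Without spaceflight replicates 1 and 3 Irf1 was at 0.047, Oas1a at -0.02, Irf7 at 0.012, Ifnar1 at 0.1, Ifnar2 at 0.187, Ifna5 at -0.046 and Il10rb at 0.037.

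With the replicate number as a block, 0 members were called and 6 were lower at an unadjusted p under 0.05. Deviations of same-numbered samples correlated at 0.243, -0.296, -0.098 and 0.069, no sample correlated best with its own number, and the labels name no pairing.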
